A study of Mus musculus with 59 samples.

Results

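The presynaptic vesicle release genes are 37 mouse genes whose proteins fill synaptic vesicles, hold them at the active zone, fuse them with the membrane or recover them afterwards. They were chosen by gene symbol from the 18088 genes of the deposited table, and each symbol matched 1 Ensembl identifier. All 37 passed the filter on low values, a normalised count of 10 or more in at least 4 libraries, as did 17901 genes of the whole table. Polyadenylated RNA was sequenced from the prefrontal cortex of 59 C57BL/6J mice at postnatal day 25. Of these, 30 mice carried 1 copy of the I48X allele of Dyrk1a (Dyrk1a+/I48X, called HET here) and 29 were wild type (WT). Pups of both genotypes received lithium, fluoxetine or vehicle from day 3 to day 24 in the milk of a treated dam, and the dose that reached each pup is not given. The groups were HET lithium, HET fluoxetine, HET vehicle, WT lithium, WT fluoxetine and WT vehicle, with 5 males and 5 females in each, except for 4 WT fluoxetine males. Dyrk1a encodes a protein kinase. The labels do not name litters, so each p-value reflects only how these mice varied, and a litter and its drug cannot be told apart.

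Transmitter release runs in ordered steps. Synapsins hold vesicles in a reserve cluster, and the scaffolds Bassoon, Piccolo, ELKS, RIM and liprin hold them at the active zone. Munc13 proteins make docked vesicles ready to fuse, the SNARE proteins syntaxin, SNAP-25 and synaptobrevin pull the membranes together, complexins clamp and assist that step, and synaptotagmins trigger it when calcium enters. Afterwards NSF takes the SNARE complex apart and dynamin cuts vesicle membrane free for reuse. Most excitatory neurons of the cortex load vesicles with glutamate through VGLUT1, the product of Slc17a7, whereas thalamic neurons mainly use VGLUT2, the product of Slc17a6.

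The libraries held 24391022 to 33842466 counts, with a median of 27601196. Dyrk1a itself stood at 2326 ± 65.9 normalised counts in HET vehicle mice and 2232 ± 55.7 in WT vehicle mice (SD, n = 10 each; log2 fold change 0.06 ± 0.05, limma adjusted p = 0.451). A sum over the gene does not tell the mutant transcript from the normal one. All 9 listed markers of cortical projection neurons were detected in every library. Olfactory bulb markers, which belong to a neighbouring tissue, were also present: the summed level of the 14 markers measured ran from 15472 to 62509 normalised counts in HET vehicle males and from 6730.3 to 11199 in WT vehicle males. Of the 14, 0 were at 0 in every library of a group, and Barhl2 was at 0 in at least 1 WT vehicle male. Lhx1, the remaining marker of that list, was not used here. All 14 were higher in HET vehicle males by the limma test, where 16.7% of all tested genes were higher. Meis2 alone had 4500 to 5098 normalised counts in WT vehicle males, a large part of their sum, and 6554 to 16413 in HET vehicle males. Doc2g, also on the list, had medians of 144 in WT and 4805 in HET vehicle males. HET fluoxetine male replicates 3 and 4 stood apart, with 4214 and 3278 normalised counts of Dyrk1a, and values without them are given where a call changed or a value or count moved by more than 1.5 times.

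Under vehicle, part of the release machinery was lower in HET than in WT cortex when the sexes were averaged, with log2 fold changes below 0 for 30 of 37 members. The sexes differed: 31 of 37 lay below 0 in males (median -0.36), and 28 of 37 lay above 0 in females (median 0.05, 0 called). Averaged over the sexes, 15 members fell and 1 rose by limma (adjusted p under 0.05), where 13.1% of all tested genes were called, 7.12% lower and 6.03% higher. The median log2 fold change was -0.16 over the 37 members and -0.00 over all tested genes. Because whole tissue was sequenced, fewer cells of a type and less RNA per cell cannot be told apart in these values. The members that fell were Stx1a among 6 SNARE genes, Syt4, Syt7 and Cplx2 among 7 calcium sensors and complexins, Syn2, Syp, Syngr1 and Sv2b among 8 synapsins and vesicle membrane proteins, Rab3c among 2 Rab3 genes, Rims1, Rims2, Unc13c, Erc2 and Ppfia3 among 9 active zone genes, and Slc17a7 among 2 glutamate transporters. Nrxn3 was the 1 that rose. Of the 14 olfactory bulb markers, 11 were higher in the same comparison (median log2 fold change 1.51). With their mean as a covariate 0 members were called (0.0112% of all tested genes), and with only the vehicle groups fitted 1 was called (0.776%).

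The member with the smallest p was Unc13c, which encodes Munc13-3, a priming factor best known from the cerebellum. The gene lies at chr9:73479422-73968966 on the minus strand (GRCm38). Its lowest, median and highest levels were 545, 705 and 864 normalised counts in HET vehicle mice and 746, 898 and 1044 in WT vehicle mice. Every HET vehicle mouse lay under the WT mean of its own sex, although the ranges overlapped, and the log2 fold change was -0.32 ± 0.09 (limma adjusted p = 0.0242). Syt4, a synaptotagmin without strong calcium binding that is made after neuronal activity, had 3354, 5551 and 6709 in HET and 4877, 6627 and 7231 in WT vehicle mice (-0.34 ± 0.09, limma adjusted p = 0.0257). The HET values reached much lower than the WT values, while the upper ends of the 2 groups overlapped. Rims2, the RIM2 scaffold, was under the WT mean of the same sex in 10 of 10 HET vehicle mice, with 2945, 3549 and 3646 in HET against 3428, 3936 and 4172 in WT (-0.18 ± 0.05, limma adjusted p = 0.0308). The highest HET values still overlapped the lowest WT value. Nrxn3, a neurexin that joins the presynaptic membrane to partners across the cleft, averaged 6307 ± 612 in HET and 5624 ± 544 in WT vehicle mice (SD, n = 10 each; 0.17 ± 0.05 on the log2 scale, limma adjusted p = 0.0373). It was above the WT mean of the same sex in 8 of 10 HET vehicle mice, and the ranges overlapped.

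The calls averaged over the sexes depended on single libraries. With 1 library left out, the count of called members was 0 without HET female 3, HET male 3, HET male 4, WT female 3 or WT female 5. It was 2 without HET female 5, 3 without HET female 2 or WT male 2, 5 without WT female 2, 8 without WT male 3 or WT male 5, 9 without WT male 4, 10 without HET male 5 and 27 without HET male 1. The share of all tested genes called in these fits is not given, so whether the swings are particular to the members was not tested. Quantile normalization gave 3 higher and 8 lower, and edgeR on the recovered counts gave 1 higher and 11 lower, where those fits called 12.3% and 12.6% of all tested genes. Without the 2 HET fluoxetine males, which enter only through the shared variance, 17 were called, with Vamp2 added, where 22.8% of all tested genes were called.

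In males alone, 29 members fell and 3 rose between HET and WT vehicle mice (limma, n = 5 each), against 36.7% of all tested genes called, 20.0% lower and 16.7% higher. The median log2 fold change was -0.36 over the members and -0.01 over all tested genes. With the mean of the olfactory bulb markers as a covariate, 0 members and 0.0% of all tested genes were called, and the member median was -0.07. The members that rose were Sv2c, Slc17a6 and Nrxn3, and those not called were Cplx1, Cplx3, Syn3, Sv2a and Nrxn2. Leaving out 1 library at a time left 28 to 32 called, edgeR called 3 higher and 29 lower (37.3% of all tested genes), and quantile normalization called 7 higher and 20 lower (36.1%). All HET vehicle males lay below all WT vehicle males for 7 members, Stx1a, Syt7, Cplx2, Syn2, Rims1, Unc13b and Ppfia3, where 5.82% of tested genes did so, and above them for Nrxn3, where 6.16% did so.

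**Figure D1:**
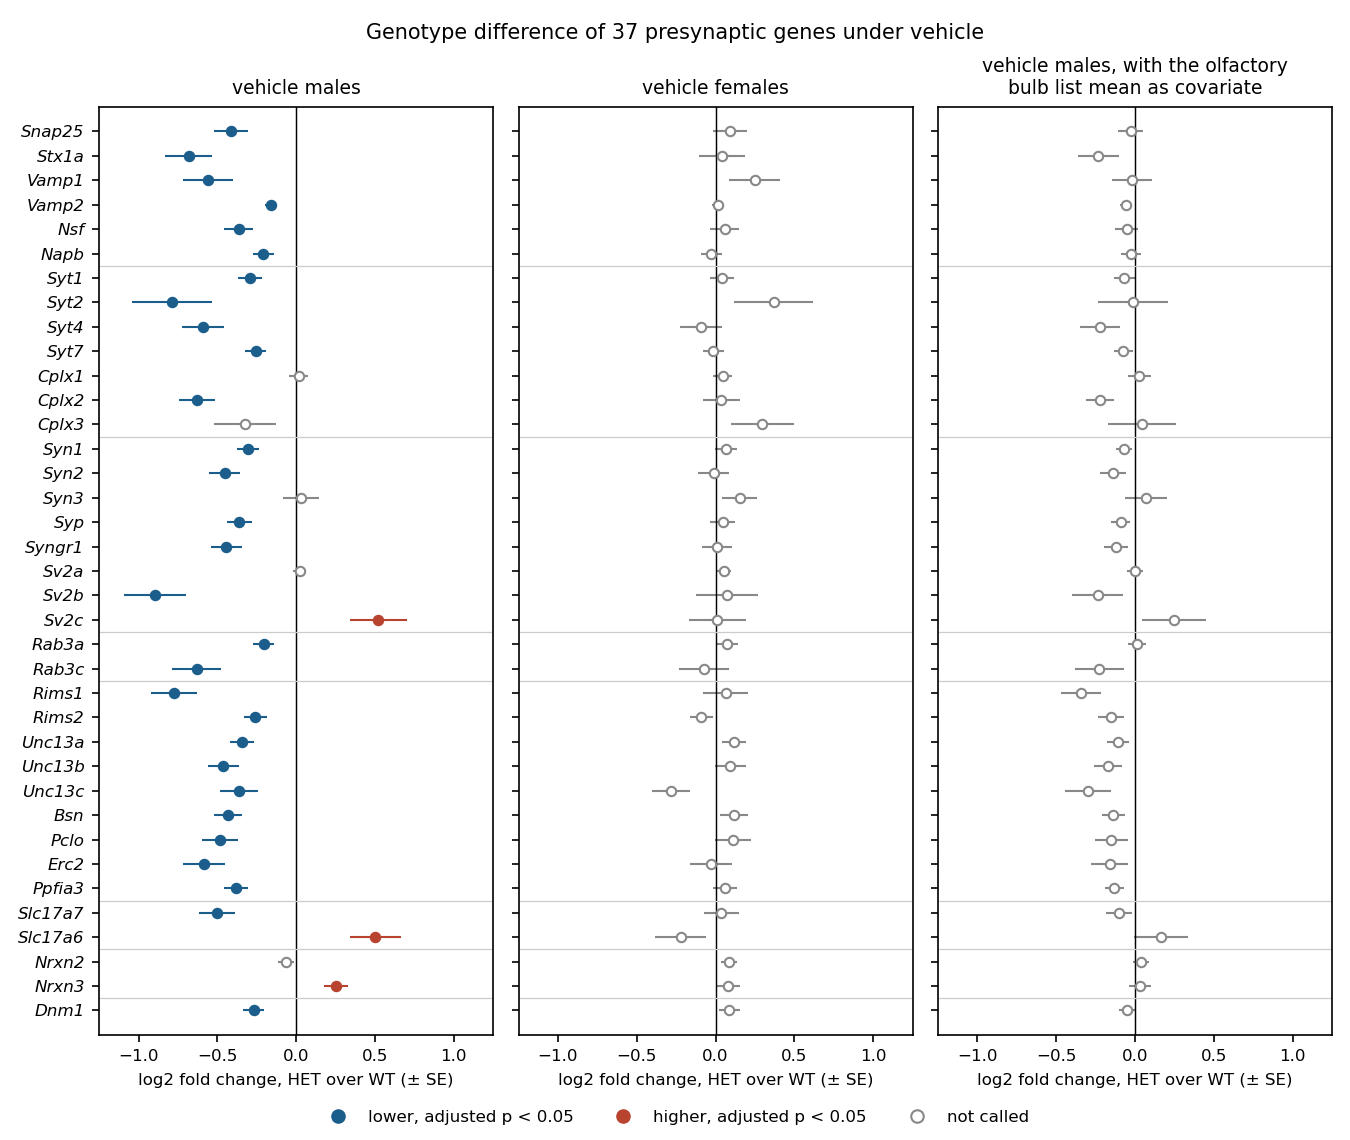
Log2 fold change of HET over WT vehicle mice (horizontal axis, ± SE) for each of the 37 genes grouped by role, in panels for males, for females and for males again with the olfactory bulb list mean in the model. In males the points lie mostly left of 0, with a median of -0.36, whereas in females they scatter around 0 with a median of 0.05 and 0 calls, and the covariate panel has a median of -0.07 and 0 calls.

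All 6 SNARE genes fell in vehicle males, where 20.0% of all tested genes were lower, with a median log2 fold change of -0.39. Stx1a, the syntaxin of the plasma membrane, had 10103, 8593, 4398, 4534 and 7111 normalised counts in HET vehicle males and 10839.6, 10652, 10349, 10791 and 10175 in WT vehicle males. HET replicates 3 and 4 were lowest, and HET replicate 1 lay just under the lowest WT male, so the groups did not overlap (log2 fold change -0.68 ± 0.15, limma adjusted p = 0.000654). Snap25, the partner SNARE on the same membrane, had 64318, 57988, 37915, 42596 and 45891 in HET and 54180.5, 75918, 65772, 65831 and 64891 in WT vehicle males. Here HET replicates 1 and 2 fell within the WT range, and the log2 fold change was -0.41 ± 0.11 (limma adjusted p = 0.00252). The synaptobrevins on the vesicle both fell, Vamp1 changing by -0.56 and Vamp2 by -0.16 on the log2 scale. Nsf, the ATPase that takes SNARE complexes apart, changed by -0.36, and its adaptor Napb by -0.21.

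Among the 7 calcium sensors and complexins, 5 fell in vehicle males, where 20.0% of all tested genes were lower. Cplx2, the complexin of excitatory cortical neurons, had 26060.4, 22306, 13347, 14052 and 18054 normalised counts in HET vehicle males and 27257, 29087, 28053, 27641 and 28425 in WT vehicle males. All HET values lay under the WT values, with replicate 3 lowest (-0.63 ± 0.12, limma adjusted p = 0.000395). Cplx1, its paralog, did not follow: it had 15284, 13969, 14639.6, 15566 and 13657 in HET and 12676, 15233, 14696, 14614 and 15219 in WT vehicle males. These groups overlapped almost fully, and the log2 fold change was 0.01 ± 0.06 (limma adjusted p = 0.872). Cplx3, known from ribbon synapses of the retina and from deep cortical neurons, stood at 231 ± 32.1 and 289 ± 38.8 in HET and WT vehicle males (SD, n = 5 each; limma adjusted p = 0.203). Of the synaptotagmins, the fast sensors Syt1 and Syt2 changed by -0.29 and -0.79 on the log2 scale. Syt4 changed by -0.59 and Syt7, the slow, high-affinity sensor, by -0.26, and all 4 passed the test.

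Of the 8 synapsins and vesicle membrane proteins, 5 fell and 1 rose in vehicle males, where 20.0% of all tested genes were lower and 16.7% higher. The 3 SV2 paralogs went different ways. SV2 proteins are glycoproteins of the vesicle membrane, and SV2A is the binding site of the antiepileptic drug levetiracetam. Sv2b had 19753, 16052, 6162, 6900.0 and 11582 normalised counts in HET and 15827, 24005, 20694, 20622 and 21432 in WT vehicle males. HET replicates 3 and 4 were far below every WT male, while replicates 1 and 2 lay within the WT range (-0.90 ± 0.20, limma adjusted p = 0.000722). Sv2c, found mainly in basal ganglia and brainstem, had 1126, 1251, 1382, 1713 and 1336 in HET and 666, 926, 1071, 974 and 1133 in WT vehicle males. HET replicate 4 was highest and HET replicate 1 lay within the WT range (0.52 ± 0.18, limma adjusted p = 0.0202). Sv2a had 11518, 10769, 11368, 11951 and 11307 in HET and 10530.5, 11098, 11231, 10976 and 12287 in WT vehicle males, overlapping groups (0.02 ± 0.04, limma adjusted p = 0.726). The synapsins Syn1 and Syn2 changed by -0.31 ± 0.07 and -0.45 ± 0.10, whereas Syn3, the synapsin of developing neurons, was at 0.03 ± 0.11 and was not called. Syp and Syngr1, which encode the tetraspan vesicle proteins synaptophysin and synaptogyrin, changed by -0.36 ± 0.08 and -0.44 ± 0.10, each with a limma adjusted p of 0.00067. Both Rab3 genes, small GTPases that bring vesicles to RIM, fell, Rab3a changing by -0.21 and Rab3c by -0.63 on the log2 scale.

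All 9 active zone genes fell in vehicle males, where 20.0% of all tested genes were lower, with a median log2 fold change of -0.43. With the olfactory bulb covariate they lay between -0.34 and -0.11, and 0 were called. Rims1, the RIM1 scaffold that ties vesicles and calcium channels together, had 8477, 7752, 3697, 4111 and 5722 normalised counts in HET and 9635, 10044, 9751, 9845 and 9058 in WT vehicle males. No HET male reached the lowest WT male (-0.78 ± 0.14, limma adjusted p = 0.000396). Rims2 changed by -0.26. Ppfia3, which encodes liprin-alpha-3, had 5083, 4571, 3343, 3458 and 4082 in HET and 5369, 5283, 5337, 5226 and 5222 in WT vehicle males, again without overlap (-0.38 ± 0.08, limma adjusted p = 0.000489). Bsn, the giant scaffold Bassoon, had 14626, 13209, 9030.2, 9255 and 11556 in HET and 13749, 16312, 15256, 15148 and 16037 in WT vehicle males. HET replicate 1 lay above the lowest WT male, so these groups overlapped (-0.43 ± 0.09, limma adjusted p = 0.000535). The Munc13 priming genes Unc13a, Unc13b and Unc13c changed by -0.34, -0.46 and -0.36. Pclo (Piccolo) and Erc2 (an ELKS protein) changed by -0.48 and -0.59, all past the limma threshold.

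The 2 vesicular glutamate transporters moved in opposite directions in vehicle males. Slc17a7 had 45029, 37976, 24775, 25867 and 33633 normalised counts in HET and 44132, 47539.5, 45427, 46275 and 47703 in WT vehicle males. HET replicates 3 and 4 were lowest and replicate 1 lay inside the WT range (-0.50 ± 0.11, limma adjusted p = 0.00082). Slc17a6 had 657, 768, 809, 892 and 939 in HET and 367, 548, 747, 536 and 743 in WT vehicle males. HET replicates 2 to 5 lay above every WT male and replicate 1 did not (0.50 ± 0.16, limma adjusted p = 0.013). Nrxn3 had 5798, 5952, 7141, 7331 and 5816 in HET and 5152, 5682, 5197, 5247 and 5494 in WT vehicle males, a separation of all 10 mice (0.25 ± 0.07, limma adjusted p = 0.00706). Its paralog Nrxn2 was at 10722 ± 439.9 and 11214 ± 313 in HET and WT vehicle males (SD, n = 5 each) and was not called. Dnm1, the neuronal dynamin of vesicle retrieval, fell, with a log2 fold change of -0.27.

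**Figure D2:**
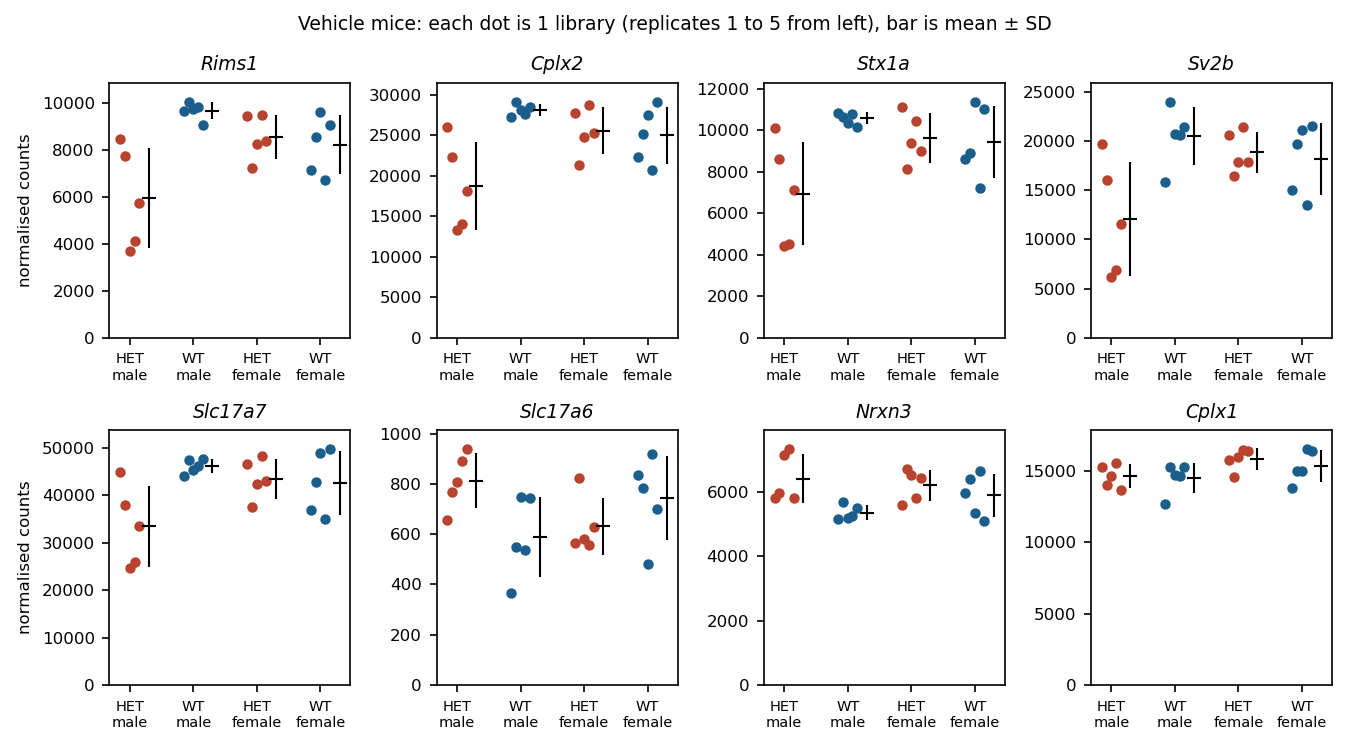
Normalised counts (vertical axis) of 8 members in each of the 20 vehicle libraries, by genotype and sex, with 1 dot per library and the mean ± SD. Rims1, Cplx2, Stx1a, Sv2b and Slc17a7 are low in HET male replicates 3 and 4, Slc17a6 and Nrxn3 are high in HET males, and Cplx1 is level across the 4 groups, at means of 14488 to 15807.

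The start regions of 4 of these genes are shown because Rims1, Slc17a7 and Syp fell together in vehicle males while Slc17a6 rose. They are RefSeq windows on GRCm38.p6, from 250 bases before to 50 after the annotated start, read along the gene. The RefSeq table matched 30 of the 37 members, with 40 windows, and left out Snap25, Vamp2, Syt4, Syt7, Syn3, Rims2 and Nrxn2. The windows are at chr1:22806109-22806408 on the minus strand for Rims1, chr7:45163671-45163970 on the plus strand for Slc17a7, chrX:7638330-7638629 on the plus strand for Syp and chr7:51621580-51621879 on the plus strand for Slc17a6. Capitals mark matches on either strand to the GC box GGGCGG and, in Syp, to the NRF1 core motif, with overlapping GC boxes in Slc17a7 run together.
Rims1: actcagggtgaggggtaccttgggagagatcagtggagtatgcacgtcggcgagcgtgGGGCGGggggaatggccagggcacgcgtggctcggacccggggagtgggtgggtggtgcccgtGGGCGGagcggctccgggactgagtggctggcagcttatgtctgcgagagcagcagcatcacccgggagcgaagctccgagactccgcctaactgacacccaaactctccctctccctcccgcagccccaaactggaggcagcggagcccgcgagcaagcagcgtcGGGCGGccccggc
Slc17a7: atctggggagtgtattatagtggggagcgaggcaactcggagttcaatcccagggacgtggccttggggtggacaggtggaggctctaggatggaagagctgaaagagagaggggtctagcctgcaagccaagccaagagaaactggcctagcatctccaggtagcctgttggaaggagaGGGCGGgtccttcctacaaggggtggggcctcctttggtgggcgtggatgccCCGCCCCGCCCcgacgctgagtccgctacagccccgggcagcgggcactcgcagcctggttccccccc
Syp: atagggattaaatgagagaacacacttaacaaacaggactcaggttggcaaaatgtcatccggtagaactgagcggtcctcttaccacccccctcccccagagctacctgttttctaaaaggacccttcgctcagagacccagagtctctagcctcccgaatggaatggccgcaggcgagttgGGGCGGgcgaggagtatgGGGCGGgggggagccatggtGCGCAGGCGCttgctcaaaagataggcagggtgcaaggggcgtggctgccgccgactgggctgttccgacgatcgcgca
Slc17a6: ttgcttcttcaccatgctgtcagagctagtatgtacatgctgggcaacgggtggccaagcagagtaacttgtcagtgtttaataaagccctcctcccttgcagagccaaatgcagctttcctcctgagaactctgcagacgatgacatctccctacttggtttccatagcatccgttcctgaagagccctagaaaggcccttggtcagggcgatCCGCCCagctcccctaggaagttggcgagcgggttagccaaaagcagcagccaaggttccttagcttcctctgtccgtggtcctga
A GC box was found in 62.5% of the 40 member windows and in 35.7% of all 32851 windows of this length, and the median share of G and C was 61.33% in the member windows and 52.67% in all windows. The NRF1 core was found in 12.5% of member windows (Bsn, Nsf, Pclo, Syngr1 and Syp) and in 4.6% of all windows. TATAAA was found in 5.0% of member windows, both of Sv2b, against 13.6% of all, and the cAMP response element TGACGTCA in 2.5% (Syn1) against 1.79%. Both strands were searched for each motif, and a match describes letters in these windows only. The 3 genes that fell and Slc17a6, which rose, all carry a GC box.

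In females, 0 members were called between HET and WT vehicle mice by limma, as were 0.0% of all tested genes, and edgeR also called 0 members. At an unadjusted p under 0.05 limma marked 1 member and 631 of all tested genes. The median log2 fold change of the members was 0.05. The smallest p was that of Unc13c, with 777, 690.5, 679.6, 607 and 631 normalised counts in HET and 763, 803, 921, 875 and 756 in WT vehicle females. HET replicate 1 alone lay above the lowest WT female (-0.28 ± 0.12, limma adjusted p = 1), and in males the value was -0.36 ± 0.12. Nrxn2 (0.09 ± 0.05) and Vamp1 (0.25 ± 0.16) followed, both with a limma adjusted p of 1. The female values of the genes that separated the males were close between genotypes, with Rims1 at 8559 ± 939.6 and 8223 ± 1242, and Cplx2 at 25543 ± 2899 and 24962 ± 3501 in HET and WT females (SD, n = 5 each).

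The difference between the sexes was tested as an interaction on the log2 scale, the female genotype difference minus the male one. By limma it was positive for 23 members and negative for Slc17a6, where 16.0% of all tested genes were called, 9.7% positive and 6.26% negative, and the median over the members was 0.44. The smallest p-values were those of Bsn (0.55 ± 0.13), Unc13a (0.46 ± 0.11), Rims1 (0.84 ± 0.20), Ppfia3 (0.44 ± 0.11) and Cplx2 (0.67 ± 0.16), each with a limma adjusted p of 0.0166. Of 9 active zone genes 7 passed, the exceptions being Rims2 and Unc13c. Of 6 SNARE genes 5 passed, the exception being Napb. Unc13a, the main Munc13 of cortical synapses, had 14486, 12103, 13879.5, 14955 and 13749 normalised counts in HET and 11616, 13059, 14182, 11316 and 13638 in WT vehicle females, and 13099, 12211, 8827, 9201 and 11092 in HET and 12951, 14109, 13512, 13818 and 13878 in WT vehicle males. HET males 3, 4 and 5 were lower than every other male, and the females overlapped. Slc17a6 had an interaction of -0.72 ± 0.23 (limma adjusted p = 0.028), with 631 ± 112 in HET and 745 ± 167 in WT vehicle females (SD, n = 5 each). The count of interactions was 0 without HET male 3, HET male 4 or WT female 4, 10 without HET female 4, 11 without WT female 1 and 15 without HET female 1. The shares of all tested genes in the fits with 1 library left out are not given. When the 4 vehicle groups were fitted alone the count was 0, where 0.0% of all tested genes were called. Quantile normalization gave 13 positive and 1 negative, where 15.9% of all tested genes were called. Leaving out the 2 HET fluoxetine males gave 28 calls, 27 positive and 1 negative, with Syt4, Syt7, Cplx3 and Nrxn2 added, where 23.9% of all tested genes were called.

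The members moved with the olfactory bulb markers from library to library. The list mean, given as a log2 deviation from all libraries, was -0.09, 0.97, 2.13, 2.15 and 1.62 in HET vehicle males and -0.63, -2.45, -1.995, -2.11 and -1.70 in WT vehicle males. The groups did not overlap in it. The median deviation of the 37 members was 0.06, -0.06, -0.52, -0.46 and -0.25 in the same HET males and -0.06, 0.17, 0.13, 0.11 and 0.14 in the same WT males, so the HET males with most bulb marker RNA had the lowest release genes. Among WT vehicle females, replicates 1 and 4 had list means of 1.07 and 1.48 and member medians of -0.11 and -0.12, lower than the other 3 females.

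Once each group's mean was taken off, 33 members had a negative and 4 a positive Pearson correlation with the list mean over the 59 libraries, with a median r of -0.68. Of the 37 relations tested, 30 negative and 3 positive ones passed (2-sided permutation within groups, 100000 resamples, Benjamini-Hochberg adjusted over the 37). The correlation was not run over all tested genes, so whether these counts are particular to the release genes was not tested. Snap25 gave r = -0.81 and rho = -0.87, each with p = 1e-05, the smallest these permutations can give (adjusted p = 1.37e-05), and r = -0.80 once the 2 libraries most distant from the median were dropped. Slc17a7 gave r = -0.80 and Syp r = -0.79. The positive ones were Nrxn3 (r = 0.66, rho = 0.61), Slc17a6 (r = 0.46, rho = 0.43) and Sv2c (r = 0.34, rho = 0.39), and after the same step their r was 0.60, 0.38 and 0.21. Unc13c (r = -0.12), Syn3 (-0.08), Cplx1 (-0.05) and Sv2a (0.11) did not pass by permutation.

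With the list mean as a covariate, 0 members were called under vehicle, averaged or in males, and 0 in the interaction, and the median log2 fold change in males was -0.07. Over all tested genes the same fit called 0.0112% averaged over the sexes and 0.0% in males. In vehicle males the list mean and the genotype did not overlap, so they cannot be told apart there. Rims1 stood at -0.34 ± 0.13 in that fit, Cplx2 at -0.22 ± 0.09 and Unc13c at -0.30 ± 0.14, each with a limma adjusted p of 0.803. Unc13c moved least of these from its value without the covariate. Without the covariate, limma called 36.7% of all tested genes in vehicle males, 20.0% lower and 16.7% higher. Cortical projection neuron markers fell alongside the release genes in vehicle males, 7 lower and 1 higher of 9, with summed levels of 8401 to 17901 normalised counts in HET and 16438 to 18496 in WT vehicle males. Interneuron markers gave 5 lower and 2 higher of 7, but their summed level was 23057 to 39695 in HET and 21010 to 23489 in WT vehicle males. Neuron markers that are not presynaptic gave 3 lower and 1 higher of 8, with a median log2 fold change of -0.22. Oligodendrocyte, astrocyte and microglia markers gave 0, 0 and 1 lower and 1, 0 and 0 higher of 10, 5 and 5. Striatum markers gave 4 lower and 3 higher of 12, and thalamus markers 0 lower and 0 higher of 4. The part of any of these lists in the release gene values was not tested beyond that covariate.

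**Figure D3:**
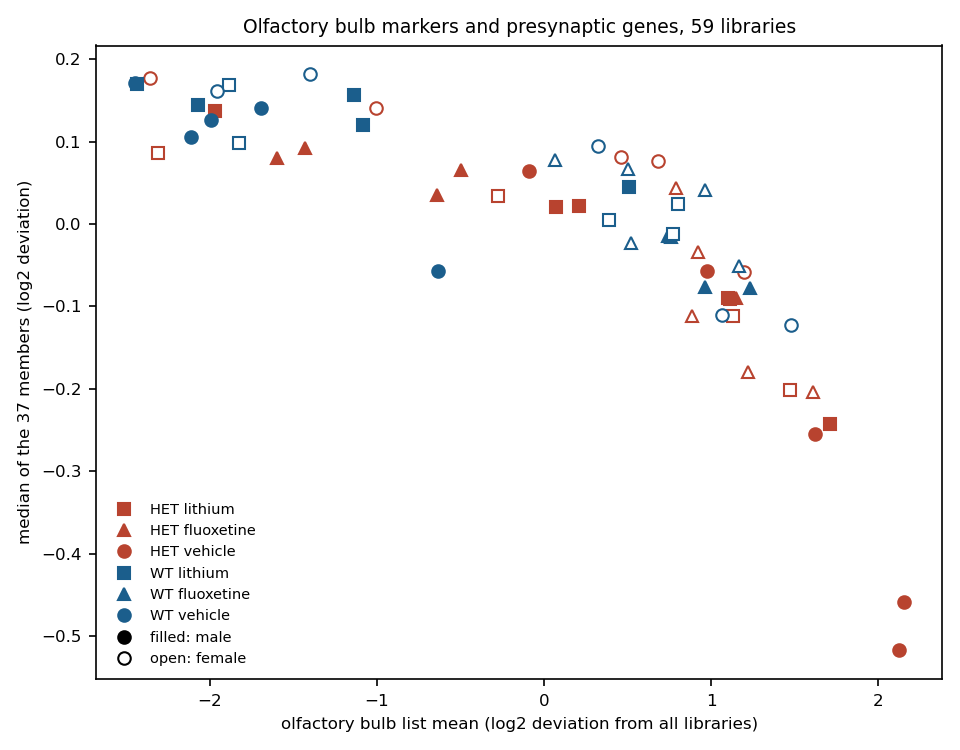
Median log2 deviation of the 37 members (vertical axis) against the mean log2 deviation of the olfactory bulb list (horizontal axis) in each of the 59 libraries, coloured by genotype, with a symbol per drug and filled symbols for males. HET vehicle male replicates 3 and 4, at list means of 2.13 and 2.15, have the lowest member medians of the vehicle libraries, at -0.52 and -0.46.

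Averaged over vehicle, lithium and fluoxetine, 22 members were lower in HET than in WT mice and 0 higher by limma, where 21.4% of all tested genes were called, 12.4% lower and 8.97% higher. The median log2 fold change was -0.11 over the members. All 9 active zone genes were among the 22, with 4 of 6 SNARE genes, 4 of 7 calcium sensors and complexins, 3 of 8 vesicle membrane genes and both Rab3 genes, while 0 transporters, 0 neurexins and 0 endocytosis genes passed. Without the 2 HET fluoxetine males 26 were lower, with Slc17a7, Dnm1, Nsf and Sv2b added, where 26.0% of all tested genes were called. Leaving out 1 library at a time left 15 to 28 called, edgeR gave 1 higher and 20 lower (22.6% of all tested genes), and quantile normalization 2 higher and 13 lower (19.3%). With the olfactory bulb covariate, where 0.57% of all tested genes were called, 1 remained, Unc13c.

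Unc13c averaged 676 ± 104 normalised counts in HET mice (SD, n = 30) and 803 ± 99.6 in WT mice (SD, n = 29), and 27 of 30 HET mice lay under the mean of the WT mice of the same drug and sex. The log2 fold change was -0.25 ± 0.05 (limma adjusted p = 0.00343), and -0.23 ± 0.05 with the covariate (limma adjusted p = 0.0228). It stood at 662 ± 80.7, 665 ± 137 and 701 ± 92.0 in HET mice with lithium, fluoxetine and vehicle, and at 789 ± 82.7, 737 ± 55.4 and 876 ± 104 in WT mice with the same (SD). The HET mean was the lower one under each drug. Under fluoxetine the log2 fold change was -0.17, and -0.05 without the 2 HET fluoxetine males, which are included in the means and counts given here. The covariate call was lost when the 2 HET fluoxetine males were also left out, a fit with 0 members called.

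Rims2 averaged 3230.3 ± 324 in HET and 3557 ± 306 in WT mice (SD, n = 30 and 29; -0.14 ± 0.03, limma adjusted p = 0.00559), and 26 of 30 HET mice lay under their WT mean. With the covariate it was -0.12 ± 0.03 (limma adjusted p = 0.0544). Rab3c averaged 14318 ± 2658 in HET and 17022 ± 2349 in WT mice (-0.26 ± 0.07, limma adjusted p = 0.0095), with 23 of 30 HET mice under their WT mean. Cplx2 (-0.19 ± 0.05) and Rims1 (-0.23 ± 0.06) followed, with limma adjusted p-values of 0.00978 and 0.0102. The ranges of the genotypes overlapped for each of the 37 members, and 0.0% of tested genes separated all HET from all WT mice.

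Within each drug alone, 0 members were called between genotypes under lithium, where 0.0112% of tested genes were, and 0 under fluoxetine, where again 0.0112% were. edgeR also called 0 members in each, and 0.0112% and 0.246% of all tested genes. Under lithium the members' log2 fold changes had a median of -0.13, with 36 of 37 below 0, and 23 members had an unadjusted limma p under 0.05, as did 18.3% of all tested genes, whose median was -0.01. The olfactory bulb list mean was 0.23 ± 1.40 in HET and -0.80 ± 1.29 in WT lithium mice (SD, n = 10 each), with 0 of its 14 markers called. With that mean as a covariate the member median was -0.05, with 34 of 37 below 0. A fit without the 2 HET fluoxetine males called 0 members and 0.0503% of all tested genes. Napb (-0.15 ± 0.05), Unc13c (-0.26 ± 0.09) and Rab3c (-0.31 ± 0.11) had the smallest p, each with a limma adjusted p of 0.233. Napb had 15276, 17422 and 20111 normalised counts (lowest, median, highest) in HET lithium mice against 18409.9, 19094 and 21091 in WT lithium mice, overlapping groups in which 9 of 10 HET mice lay under the WT mean of their sex. Under fluoxetine the median was -0.02, 23 of 37 were below 0, and 0 members had an unadjusted p under 0.05, against 14.7% of all tested genes. The olfactory bulb markers had a median of -0.55, and with the covariate the member median was -0.05, with 30 of 37 below 0. Rims2 (-0.10 ± 0.05), Unc13c (-0.17 ± 0.09) and Unc13a (-0.11 ± 0.06) had the smallest p, with limma adjusted p-values of 0.358, 0.366 and 0.367. Without the 2 HET fluoxetine males Rims2 was at -0.02 and Unc13c at -0.05, and 3.94% of all tested genes had an unadjusted p under 0.05. Whether the genotype difference changed with a drug was tested directly: 0 members passed for lithium by genotype and 0 for fluoxetine by genotype, as did 0.0% of all tested genes in both. At an unadjusted p under 0.05, limma marked 1 member and 497 tested genes for lithium and 8 members and 3917 tested genes for fluoxetine, 2.78% and 21.9% of all tested genes. The smallest p-values were those of Cplx1 for lithium (-0.13 ± 0.06, limma adjusted p = 1) and Syn2 for fluoxetine (0.29 ± 0.10, limma adjusted p = 0.114). The fluoxetine interaction had a median of 0.14 over the members, and of -0.04 with the olfactory bulb covariate. Without HET vehicle male 1 the fluoxetine interaction called 5 members, and without HET fluoxetine male 2 it called 1, with the shares of all tested genes not given.

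Lithium, which inhibits inositol monophosphatase and GSK3, called 0 members in HET mice, where 0.497% of tested genes were called, and 0 in WT mice, where 0.162% were. edgeR also called 0 in each, against 0.559% and 0.14% of all tested genes. The unadjusted limma p was under 0.05 for 3 members in HET and 4 in WT mice, and for 10.4% and 6.86% of all tested genes. When the 2 HET fluoxetine males were left out, limma called 0 members in either genotype, and 1.28% of all tested genes in HET and 0.469% in WT mice. In HET mice Syn2, the synapsin that holds the reserve of excitatory vesicles, had 14021, 16049.5 and 20246 normalised counts under lithium and 9886, 14636 and 16304 under vehicle. Of the lithium mice, 8 of 10 lay above the vehicle mean of their sex, and the groups overlapped (0.23 ± 0.07, limma adjusted p = 0.153). It passed with the olfactory bulb covariate (0.19 ± 0.05, limma adjusted p = 0.0396; 0.849% of all tested genes), under quantile normalization (0.609%) and without HET vehicle male 1, each time as the only member called. Rims2 (-0.13 ± 0.05) and Unc13b (0.17 ± 0.07) came next, with limma adjusted p-values of 0.32 and 0.342. In WT mice Sv2a averaged 12418 ± 513 under lithium and 11583 ± 666 under vehicle (SD, n = 10 each), with 10 of 10 lithium mice above the vehicle mean of their sex (0.10 ± 0.03, limma adjusted p = 0.203). Rims2 averaged 3410.2 ± 236 and 3842 ± 261 in the same groups, with 10 of 10 below that mean (-0.17 ± 0.05, limma adjusted p = 0.238). Cplx1 was at 0.11 ± 0.04 (limma adjusted p = 0.455). The lithium and vehicle ranges of Sv2a and Rims2 overlapped.

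Fluoxetine, a serotonin reuptake inhibitor, called 0 members in HET mice, where 4.27% of tested genes were called, and 0 in WT mice, where 0.447% were. edgeR called 2 members in HET mice, Sv2c and Syn2, where 6.92% of all tested genes were called, and 0 in WT mice, where 0.441% were. The unadjusted limma p was under 0.05 for 7 members in HET and 9 in WT mice, and for 24.1% and 17.5% of all tested genes. With the 2 HET fluoxetine males left out, limma called 0.425% of all tested genes in HET mice and 2.92% in WT mice. Sv2c in HET mice had 1655, 1215, 2534, 3096 and 1374 normalised counts in fluoxetine males and 1506, 1740.4, 1519.5, 1538 and 1263 in fluoxetine females, against 1126, 1251, 1382, 1713 and 1336 in vehicle males and 1025, 1356, 1259, 1146 and 1305 in vehicle females. Male replicates 3 and 4, the libraries that stood apart, were highest (0.38 ± 0.13, limma adjusted p = 0.0659). Without these libraries the log2 fold changes were 0.19 for Sv2c (limma adjusted p = 0.622), 0.17 for Syn2 and 0.25 for Sv2b. Syn2 in HET mice averaged 16225 ± 2648 under fluoxetine and 13965 ± 2387 under vehicle (SD, n = 10 each; 0.22 ± 0.07, limma adjusted p = 0.0544). Only 6 of 10 fluoxetine mice lay above the vehicle mean of their sex. Sv2b was at 0.36 ± 0.14 (limma adjusted p = 0.108). The limma count was 4 without HET vehicle male 1, 3 without HET fluoxetine male 2, 2 without HET fluoxetine male 5, and 1 without HET fluoxetine male 1, HET fluoxetine female 1 or HET vehicle male 2. Syn2 was among the called members in each of these except without HET fluoxetine male 1, where it was Sv2c. How many of all tested genes these fits called is not given, so the counts are not a result about the members alone.

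In WT mice fluoxetine gave 31 of 37 log2 fold changes below 0, with a median of -0.10, against -0.00 over all tested genes. The olfactory bulb list mean was 0.77 ± 0.37 in WT fluoxetine mice (SD, n = 9) and -0.94 ± 1.42 in WT vehicle mice (SD, n = 10), and the median log2 fold change of its 14 markers was 1.76, with 0 called. With that mean as a covariate 5 of 37 members lay below 0 and the member median was 0.07. All 6 SNARE genes then lay between 0.01 and 0.15, where they had lain between -0.14 and -0.03. Rims2 averaged 3405 ± 188 under fluoxetine (SD, n = 9) and 3842 ± 261 under vehicle (SD, n = 10; -0.18 ± 0.05, limma adjusted p = 0.0909). Sv2c averaged 1422 ± 129 and 1086 ± 231 in the same groups, with 9 of 9 fluoxetine mice above the vehicle mean of their sex (0.41 ± 0.13, limma adjusted p = 0.107). Slc17a6 averaged 817 ± 77.5 and 667 ± 175 (0.35 ± 0.12, limma adjusted p = 0.125). Fitted on the WT fluoxetine and vehicle mice alone, a fit that called 6.43% of all tested genes, 6 members passed, with Cplx2, Rims1, Rims2, Syt4 and Unc13c lower and Sv2c higher. Without the 2 HET fluoxetine males Rims2 (lower) and Sv2c (higher) passed, and without WT vehicle female 4 Rims2 alone did. The genotype and drug comparisons share the vehicle mice of each genotype, so their values are not independent of each other.

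**Figure D4:**
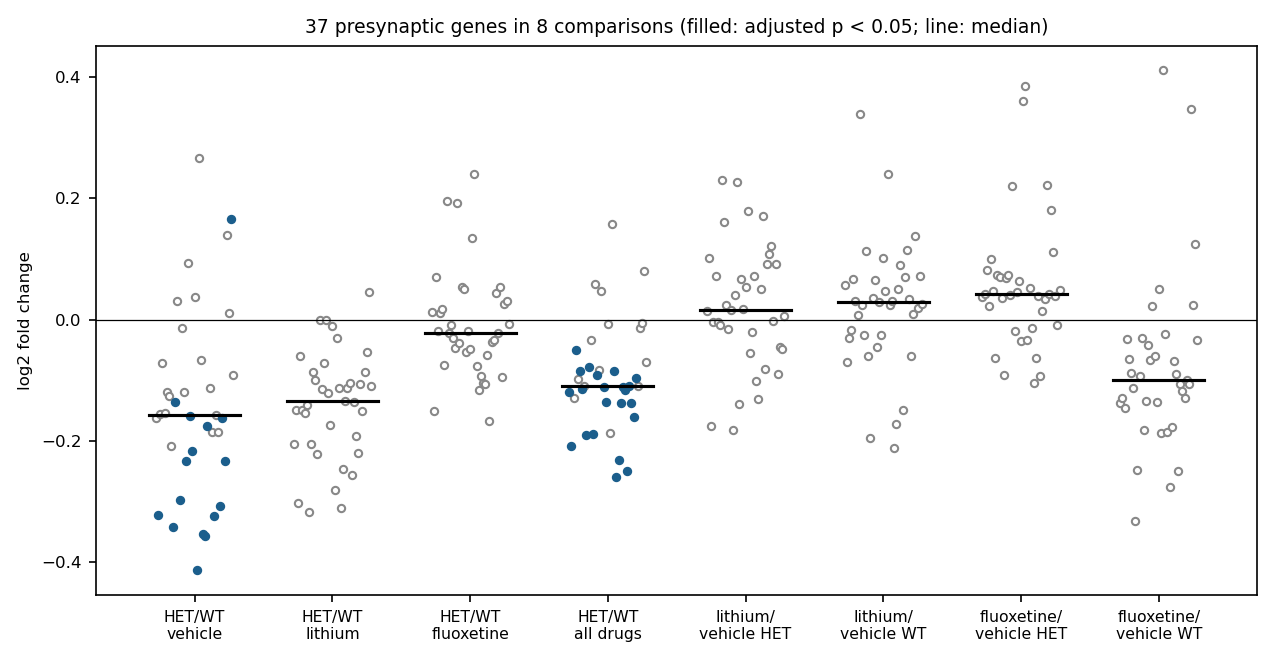
Log2 fold change (vertical axis) of each of the 37 members in 8 comparisons, with filled dots for a limma adjusted p under 0.05 and a line at the median. Filled dots appear in the vehicle comparison (16) and in the comparison over all drugs (22) and in none of the 6 others, whose medians run from -0.13 to 0.04.

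The other genes of the release pathway, a list of 57 chosen with earlier results of these data known, gave 6 higher and 15 lower under vehicle and 9 higher and 33 lower in vehicle males, with medians of -0.11 and -0.25. Of all tested genes, 6.03% were higher and 7.12% lower under vehicle, and 16.7% higher and 20.0% lower in vehicle males. In vehicle females 0 of the 57 and 0.0% of all tested genes were called, with a list median of 0.0009. The interaction with sex was positive for 23 and negative for 6, against 9.7% and 6.26% of all tested genes. The olfactory bulb list mean did not overlap between HET and WT vehicle males, and values with it as a covariate are not given for these 57. The genes of smallest p in vehicle males were Rph3a, a Rab3 effector (-0.81 ± 0.15, limma adjusted p = 0.000432), and Rimbp2, which links RIM to calcium channels (-0.61 ± 0.12, limma adjusted p = 0.00045). Genes that rose included Syt10, known from olfactory bulb neurons (2.08 ± 0.42), and Slc32a1, the vesicular transporter of inhibitory neurons (0.89 ± 0.19). Over all drugs 4 were higher and 23 lower, where 8.97% of all tested genes were higher and 12.4% lower. For fluoxetine in HET mice 2 were called lower, Rims3 and Cadps, where 4.27% of all tested genes were called. That share was 0.425% without the 2 HET fluoxetine males, a fit in which this list was not examined. Lithium called 0 in HET or WT mice, where 0.497% and 0.162% of all tested genes were called.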

How the data were processed

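RNA was measured in 59 prefrontal cortex libraries in 12 groups of genotype, drug and sex. The submitters' processing notes name Salmon 0.11.2, DESeq2 1.19.11, R 3.6.0 and GRCm38. The deposited values are a signal, counts divided by a size factor per library, called normalised counts here. In all 59 libraries 100% of values came back as whole counts within 0.01, although 3 libraries had a step too near 1 to show this alone.

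limma 3.58.1 (R 4.3.3) with trend was run on log2(value + 1), over the 17901 of 18088 genes at 10 or more in at least 4 libraries. The model had 12 group means and 47 residual degrees of freedom. p-values were adjusted by Benjamini-Hochberg within each of 13 comparisons at a threshold of 0.05. Fold changes are on this log2 scale and understate low genes. edgeR 4.0.16 (quasi-likelihood) on the recovered counts was an alternative, with pseudocount 5, no filter or one of 100, quantile normalization, TMM factors, a block for the replicate number, a covariate holding the olfactory bulb list mean, the 2 HET fluoxetine males left out, only the groups compared, and each library left out. The limma test was checked on simulated data in which genes varied independently. A shift shared by many genes, like that along the olfactory bulb list mean, was not simulated. Coordinates are from GENCODE M21 (GRCm38). Library totals limit precision to counting error and the spread between mice.

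The members and gene lists were chosen with earlier results of these data known. Members were named by a rule: up to 12 called members of smallest p per comparison, or the 3 of smallest p where none was called, with values per library for up to 4, and paralogs that differed set side by side. Further members are given beside their role group.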

Additional observations from a re-analysis of the deposited data

Results flagged for a closer look

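The genotype difference under vehicle differed between the sexes for 24 members, by the limma interaction at an adjusted p under 0.05. The same test called 16.0% of all tested genes, 9.7% positive and 6.26% negative. On the log2 scale, as the female difference minus the male one, the interaction was 0.55 for Bsn, 0.46 for Unc13a, 0.84 for Rims1, 0.44 for Ppfia3, 0.56 for Unc13b, 0.60 for Pclo and 0.56 for Erc2, the active zone genes. It was 0.50 for Snap25, 0.72 for Stx1a, 0.81 for Vamp1, 0.18 for Vamp2 and 0.42 for Nsf among the SNARE genes, and 0.34 for Syt1, 1.15 for Syt2 and 0.67 for Cplx2 among the sensors and complexins. Vesicle membrane genes gave 0.37 for Syn1, 0.44 for Syn2, 0.41 for Syp, 0.45 for Syngr1 and 0.96 for Sv2b. Rab3a gave 0.28, Slc17a7 0.54, Slc17a6 -0.72 and Dnm1 0.36. The olfactory bulb list mean differed between HET and WT vehicle males without overlap, and with it as a covariate 0 of the 24 passed. The count of called members was also 0 without HET male 3, HET male 4 or WT female 4. It was 0 too with only the vehicle groups fitted, where 0.0% of all tested genes were called.

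The median log2 deviation of the 37 members in WT vehicle male replicate 1 was -0.0568, while the other 4 WT vehicle males lay between 0.11 and 0.17. That gap is wide for a group of 5, and such a gap arises by chance in about 1 of 20 groups, where 12 groups were examined and 1 showed it. The same library had the highest olfactory bulb list mean of its group, -0.63.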

How the results depend on the processing

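The counts of called members were within 1.5 times their values under pseudocount 5, no filter on low values and the replicate block. None of these counts and no member named by the rule of smallest p changed direction under the settings run. Other members did with the olfactory bulb covariate, among them a Rab3 gene in vehicle males and all 6 SNARE genes for fluoxetine in WT mice. Medians over the members changed sign too. With the olfactory bulb covariate the median was 0.07 for fluoxetine in WT mice (-0.10 without it), -0.04 for fluoxetine by genotype (0.14), -0.02 for lithium in HET mice (0.02) and -0.03 for lithium by genotype (0.01), and the last 2 also changed sign without single libraries. The count with this covariate was 0 under vehicle, 0 in vehicle males, 0 for genotype by sex, 1 over all drugs, 1 for lithium in HET and 2 for fluoxetine in HET mice. Of all tested genes this fit called 0.0112% under vehicle and 0.0% in vehicle males and for genotype by sex. It called 0.57% over all drugs, 0.849% for lithium in HET, and 619 genes higher and 559 lower for fluoxetine in HET mice. With the 2 HET fluoxetine males left out too, the count of members was 0 under vehicle, in vehicle males, for genotype by sex and over all drugs. It was 2 for lithium in HET and 1 for lithium in WT mice. Of 17901 tested genes that fit called 201 higher and 245 lower for lithium in HET and 124 higher and 113 lower for lithium in WT. Over all drugs it called 30 higher and 15 lower. Those 2 males left out alone gave 2 for fluoxetine in WT mice, where 2.92% of all tested genes were called. Fitting only the groups compared gave 1 under vehicle, 21 in vehicle males, 0 for genotype by sex, 1 for lithium in WT and 6 for fluoxetine in WT mice. That fit called 0.776% of all tested genes under vehicle, 0.0% for genotype by sex and 6.43% for fluoxetine in WT mice. In vehicle males it called 2182 of 17901 tested genes higher and 2373 lower, and for lithium in WT mice 26 higher and 31 lower. Quantile normalization gave 14 for genotype by sex, 1 for lithium in HET and 2 for fluoxetine in HET mice. For fluoxetine in HET mice the filter of 100 and TMM factors each gave 1, and edgeR 2. Of 13129 genes tested with the filter of 100, 399 were called higher and 384 lower. With TMM factors 403 of 17901 genes were called higher and 382 lower, and edgeR called 6.92%. Among single members named in a comparison, 47 lost their call with the covariate and 3 gained one, and 23 lost and 3 gained one when only the groups compared were fitted. The cause of these changes was not tested.

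Leaving out 1 library at a time gave 0 to 27 under vehicle, 28 to 32 in vehicle males, 0 to 27 for genotype by sex and 15 to 28 over all drugs. It gave 0 to 1 for lithium in HET, 0 to 4 for fluoxetine in HET, 0 to 1 for fluoxetine in WT mice and 0 to 5 for fluoxetine by genotype, and 0 in the 5 remaining comparisons. For fits with 1 library left out, the share of all tested genes called is not given in any comparison.

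The replicate block gave 12 members under vehicle and 22 over all drugs. Of 17901 tested genes it called 879 higher and 1051 lower under vehicle, and 1611 higher and 2221 lower over all drugs. The labels do not say whether replicate numbers pair the mice. Deviations of same-numbered libraries had a median correlation of -0.00 over 319 pairs, from -0.59 to 0.46, with 65 over 0.1. Other-numbered libraries also had a median of -0.00, and 16 of 59 libraries matched their own number best. Whether some numbers pair mice was not tested further. Drug, dam and litter cannot be told apart.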
